A study of Mus musculus with 4 samples.

Results

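The genes described here are 10 genes of vesicle traffic, the endosome and the exosome: Sdcbp, Chmp5, Clta, Snx30, Vps50, Rab2a, Stx17, Golph3, Vps13b and Cpne3. They were taken by symbol from count tables that list 56748 gene IDs, and each symbol matched 1 row. The tables came from the lymph nodes of 4 mice with experimental autoimmune encephalomyelitis (EAE), a model in which the immune system is provoked to attack myelin. There were 2 mice given 2-bromo-1,4-naphthalenedione (BrQ), a brominated quinone, and 2 given vehicle as control. All 4 mice had EAE, so neither group is healthy tissue. Total RNA was sequenced as 1 library for each mouse, and the libraries of each group are numbered 1 and 3. Not given in the sources used here are strain, age, dose, route and time of treatment. The comparison of BrQ with Vehicle asks which of these transcripts differ in the node after treatment.

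Cells move membrane and cargo in vesicles. Coat proteins such as clathrin shape the membrane, Rab GTPases and tethering complexes bring the vesicle to its target, and SNARE proteins fuse it there. Endosomes sort what was taken up. Cargo returns to the surface or the Golgi, or the ESCRT machinery buds it into inner vesicles that are degraded or released as exosomes. In lymph nodes this traffic serves antigen uptake and presentation, receptor turnover and vesicle release by immune cells.

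Reads on gene IDs numbered 6992223 and 6813832 for the BrQ libraries, against 7315568 and 7989226 for the Vehicle libraries, and between 87.0% and 89.0% of all read rows named no gene. Reads of mitochondrial genes took 15.8% and 12.1% of gene reads in BrQ, against 20.6% and 30.3% in Vehicle, a gap that moves the plain read share of other genes. Levels are given as CPM (counts scaled to a library of 1000000 reads) after TMM, a method that sets the library scale from the bulk of the features. Most gene names in these tables do not appear to sit on their own reads. Of 431 other named protein-coding genes within 5 Mb of a member, 51.7% averaged at least 50 reads, against 23.2% of 19639 elsewhere. That the reads counted for each member are its own was not shown gene by gene. Among the 20 protein-coding genes nearest to each member, 7 (Snx30) to 17 (Chmp5) averaged 50 reads or more, and Vps50, near the end of its chromosome, had 5 of 12. All 10 members were well filled, from 496 reads for Cpne3 in Vehicle replicate 1 to 8597 for Sdcbp in BrQ replicate 1. The relative counting error was at most 4.49% in any library.

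With BrQ, 6 members were higher, 1 was lower and 3 did not pass. Sdcbp and Cpne3 were 2.49-fold and 2.62-fold higher, Golph3 and Chmp5 1.65-fold and 1.60-fold, and Snx30 and Clta 1.42-fold and 1.35-fold. Stx17 was lower, at 0.721 of its Vehicle level. Vps13b, Rab2a and Vps50 did not pass. A call here means an adjusted p under 0.05 by edgeR's quasi-likelihood test, with Benjamini-Hochberg adjustment over all 10223 features tested. Calls were common everywhere: 45.7% of all features passed, 23.6% as higher and 22.2% as lower. Among the 1760 features with at least as many reads as the lowest member, 66.6% passed, 21% as higher and 45.7% as lower, so 7 calls among 10 well-filled members is near the general share, while 6 higher among 10 is above it. The median log2 fold change was 0.47 over the 10 members and 0.05 over all features tested. Over the 328 other features within 5 Mb of a member it was -0.16, with 63 called higher and 89 lower. The members were chosen with earlier results of these data known, so an excess over these shares is not a test of the set. With 2 mice in each group, the p-values rest only on the spread between these mice. That spread is estimated in part from all features tested, so it is not that of each gene alone. In bulk tissue, fewer cells of a type and less RNA in each cell cannot be told apart.

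**Figure D1:**
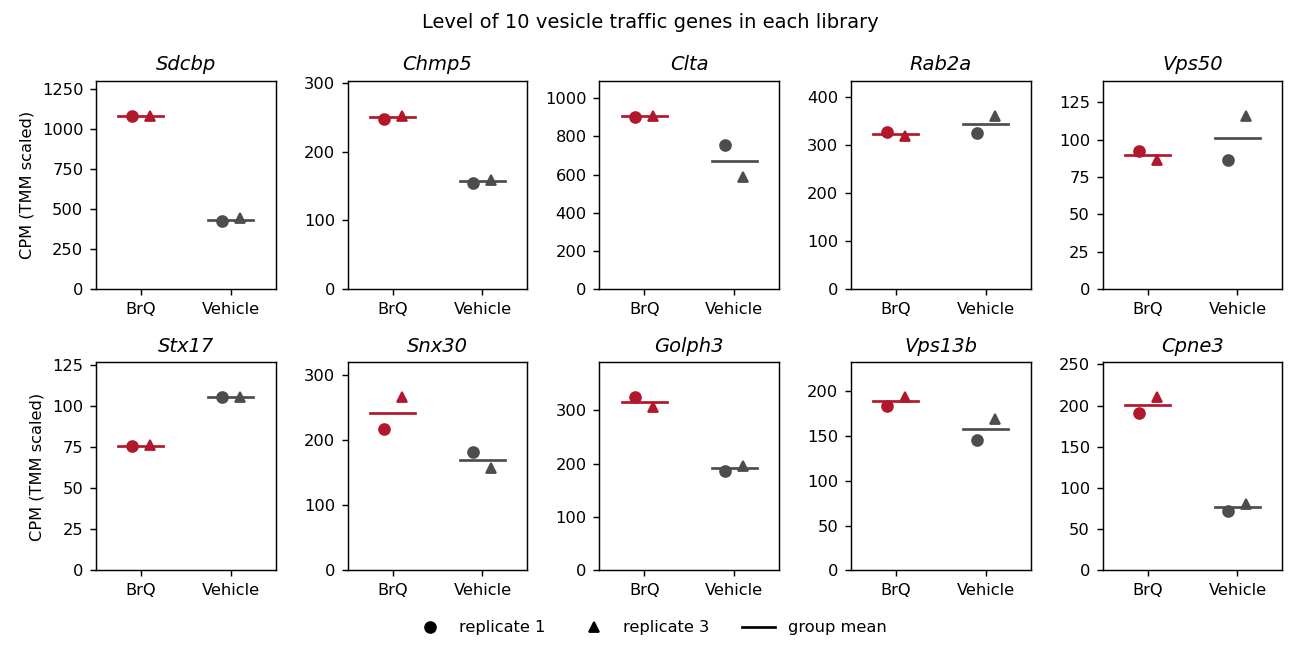
TMM-scaled CPM of each gene (vertical axes from 0, a scale of its own in each panel) in the 2 BrQ and the 2 Vehicle libraries; circles are replicate 1, triangles replicate 3 and lines group means. Sdcbp stood at 1083 and 1082 CPM in BrQ, against 426.0 and 441.9 CPM in Vehicle, and the groups overlap for Rab2a and Vps50.

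Promoter sequence from RefSeq (GRCm38.p6), from 250 bases before to 50 bases after the start site, was matched by symbol for 6 of the 10 members. Shown are Golph3 and Chmp5, which rose under every setting, and Stx17, the member that was lower in BrQ. Capitals mark matches on either strand to 6 motifs, which were chosen with these promoters in view: the cAMP response element TGACGTCA, the TFEB and MITF E-box CACGTG, the antioxidant response element core TGACNNNGC, the half-site TGCGCA of nuclear respiratory factor 1 (NRF1), the CCAAT box CCAAT and the interferon response core GAAANNGAA.
Golph3 (chr15:12321246-12321545, plus strand): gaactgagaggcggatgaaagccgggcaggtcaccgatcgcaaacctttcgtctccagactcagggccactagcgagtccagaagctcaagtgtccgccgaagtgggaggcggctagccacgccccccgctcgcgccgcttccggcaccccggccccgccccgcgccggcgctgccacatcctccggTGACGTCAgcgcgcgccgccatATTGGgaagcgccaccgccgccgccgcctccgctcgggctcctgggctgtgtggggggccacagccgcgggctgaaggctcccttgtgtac
Chmp5 (chr4:40948303-40948602, plus strand): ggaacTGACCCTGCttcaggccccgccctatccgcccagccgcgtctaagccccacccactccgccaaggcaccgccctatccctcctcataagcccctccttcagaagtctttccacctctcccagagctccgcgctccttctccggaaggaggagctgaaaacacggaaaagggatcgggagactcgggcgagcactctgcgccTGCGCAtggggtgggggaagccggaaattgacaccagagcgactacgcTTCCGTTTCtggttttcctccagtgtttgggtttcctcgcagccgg
Stx17 (chr4:48124669-48124968, plus strand): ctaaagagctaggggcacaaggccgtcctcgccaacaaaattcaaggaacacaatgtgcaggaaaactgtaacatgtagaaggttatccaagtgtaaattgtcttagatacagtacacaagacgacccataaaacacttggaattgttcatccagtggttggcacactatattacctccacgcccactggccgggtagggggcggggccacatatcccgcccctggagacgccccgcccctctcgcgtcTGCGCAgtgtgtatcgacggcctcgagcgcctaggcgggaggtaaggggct
The Golph3 window holds TGACGTCA, which 1.79% of the 32851 promoters in the table hold, and a CCAAT box on the other strand, which 37.4% hold. The Chmp5 window holds the antioxidant response element core, found in 12.4% of promoters, the NRF1 half-site, found in 7.76%, and on the other strand the interferon response core, found in 8.56%. The Stx17 window holds the NRF1 half-site only. Of the windows not shown, those of Clta and Vps50 hold matches, and that of Snx30, also called higher, holds none. None of the marked motifs overlap each other, and a match describes letters only.

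Sdcbp, on chromosome 4 from 6365650 to 6408423 (GRCm38, plus strand), encodes syntenin-1, a PDZ domain protein that links syndecans to the ESCRT accessory protein ALIX and so takes part in exosome formation. It had 8597 and 8407 reads in BrQ replicates 1 and 3, against 2941 and 2888 in Vehicle replicates 1 and 3. On the CPM scale BrQ libraries averaged 1082 ± 0.810, against 434.0 ± 11.2 for Vehicle libraries (SD, n = 2 per group). The BrQ libraries lay far above the Vehicle libraries, with little spread inside either group. The SD of the BrQ libraries is below their counting error, so it does not measure the spread between mice. The log2 fold change was 1.32 ± 0.12 (SE, 95% interval 1.04 to 1.60), with an edgeR adjusted p of 9.54e-05. It passed under all 16 alternative settings, at log2 fold changes from 1.27 to 1.69. Of its longest transcript, 11.7% matches the gene model Gm47724 at 95% identity or more, and those bases could share reads. Nsmaf, on the opposite strand, shares 1.13% of its exonic bases.

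Chmp5 (chromosome 4 from 40948407 to 40965303, plus strand) encodes an ESCRT-III-associated protein that works with the ATPase VPS4 and its partner LIP5 in the closing steps of inner vesicle formation. Its levels were 248.0 and 252.9 CPM in BrQ replicates 1 and 3, against 155.3 and 158.5 CPM in Vehicle replicates 1 and 3. Both BrQ libraries were above both Vehicle libraries by far more than the spread within a group. Its log2 fold change was 0.67 ± 0.14 (SE, 95% interval 0.37 to 0.98; edgeR adjusted p = 0.00340), and Chmp5 passed under all 16 alternatives.

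Clta (chromosome 4 from 44004452 to 44032846, plus strand) encodes clathrin light chain A, a regulatory subunit of the clathrin coat used at the plasma membrane, the trans-Golgi network and endosomes. Its levels were 904.4 and 908.8 CPM in BrQ, against 756.2 and 588.9 CPM in Vehicle. The BrQ libraries were nearly equal, while the Vehicle libraries differed from each other by more than the gap between the higher one and BrQ. This gave a log2 fold change of 0.43 ± 0.15 (SE, 95% interval 0.11 to 0.76; edgeR adjusted p = 0.0355). Without Vehicle replicate 3 it was 0.25 and did not pass (edgeR adjusted p = 0.212), and the call was also lost without either BrQ replicate, with no low count filter and with DESeq2. The adjusted p ranged from 0.00176 to 0.212 over the alternatives.

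Snx30 (chromosome 4 from 59805840 to 59904737, plus strand) encodes a sorting nexin with a phosphoinositide-binding PX domain and a membrane-curving BAR domain, found on endosomes. Its levels were 217.6 and 266.7 CPM in BrQ, against 182.2 and 158.2 CPM in Vehicle. The groups did not overlap, and BrQ replicate 3 was the highest library. The edgeR estimate was a log2 fold change of 0.51 ± 0.16 (SE, 95% interval 0.16 to 0.86; edgeR adjusted p = 0.0242). It fell short without BrQ replicate 3 (0.37, edgeR adjusted p = 0.229), without Vehicle replicate 3 (0.40) and with no low count filter. The adjusted p ranged from 0.000814 to 0.229 over the alternatives. Only 7 of its 20 nearest protein-coding genes averaged 50 reads, the fewest beside any member with 20 neighbours, and Gm12543 shares 3.08% of its exonic bases on the same strand.

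Rab2a (chromosome 4 from 8535644 to 8607778, plus strand) encodes a small GTPase of traffic between endoplasmic reticulum and Golgi that also acts in the maturation of late endosomes and autophagosomes. Its levels were 325.9 and 318.8 CPM in BrQ, against 325.4 and 360.6 CPM in Vehicle, and the groups overlapped. The log2 fold change was -0.09 with a 95% interval of -0.38 to 0.21, and Rab2a did not pass (edgeR adjusted p = 0.604). It is the member with the largest near-identical copy: 29.8% of its longest transcript matches the gene model Gm5865.

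Vps50 (chromosome 6 from 3498382 to 3603531, plus strand) encodes a subunit of the EARP complex, which tethers vesicles that recycle endosomal cargo. Its levels were 92.7 and 86.5 CPM in BrQ, against 86.6 and 116.1 CPM in Vehicle. Vehicle replicate 1 and BrQ replicate 3 were practically equal, so the groups overlapped. Its estimate was a log2 fold change of -0.18 with a 95% interval of -0.57 to 0.22 (edgeR adjusted p = 0.433). Neither Rab2a nor Vps50 passed under any of the 16 alternatives, and the sign of both turned positive with library size alone and with the total of all read rows as library size.

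Stx17 (chromosome 4 from 48124915 to 48186507, plus strand) encodes syntaxin 17, the SNARE that moves to completed autophagosomes and fuses them with lysosomes. Its levels were 75.3 and 76.3 CPM in BrQ, against 105.2 and 105.3 CPM in Vehicle. The groups were clearly apart and each pair of libraries was nearly equal. The pairs were closer than the counting error, so their closeness does not measure the spread between mice. For Stx17 the log2 fold change was -0.47 ± 0.15 (SE, 95% interval -0.81 to -0.14), with an edgeR adjusted p of 0.0273. This call was the least stable of the 7. It was lost under 8 of 16 alternatives, and the adjusted p over all 16 ranged from 0.0118 to 0.683. Without BrQ replicate 1, BrQ replicate 3 or Vehicle replicate 3 the log2 fold change was -0.45, -0.47 and -0.49, with edgeR adjusted p of 0.151, 0.160 and 0.0531. The estimate itself shrank to -0.10 with library size alone (edgeR adjusted p = 0.683) and to -0.26 with the total of all read rows as library size (edgeR adjusted p = 0.206).

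Golph3 (chromosome 15 from 12321450 to 12351591, plus strand) encodes a protein that binds phosphatidylinositol 4-phosphate on the trans-Golgi and helps form Golgi vesicles. Its levels were 324.7 and 306.3 CPM in BrQ, against 187.0 and 195.8 CPM in Vehicle. Both BrQ libraries were well above both Vehicle libraries. The log2 scale gave a change of 0.72 ± 0.13 (SE, 95% interval 0.42 to 1.02; edgeR adjusted p = 0.00234), and Golph3 passed under all 16 alternatives. On the opposite strand, 1810049J17Rik covers 13.8% of its exonic bases, and whether the counting used strand was not stated in those sources.

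Vps13b (chromosome 15 from 35371160 to 35931229, plus strand) encodes a very large lipid transfer protein of the Golgi, mutated in Cohen syndrome in humans. Its levels were 183.6 and 193.0 CPM in BrQ, against 145.3 and 168.9 CPM in Vehicle. Both BrQ libraries were the higher ones, but the log2 fold change of 0.26 ± 0.15 (SE, 95% interval -0.06 to 0.59) did not pass (edgeR adjusted p = 0.166). It passed with library size alone (0.64, edgeR adjusted p = 0.00542) and with the total of all read rows as library size (0.47, edgeR adjusted p = 0.0224), within a range of 0.00542 to 0.517 over the alternatives. Exons of Cox6c and Gm48960 on the opposite strand share 2.91% of its exonic bases.

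Cpne3 encodes copine 3, a protein that binds phospholipid membranes when calcium rises. Its locus, chromosome 4 from 19519254 to 19570108, is the only one of the 10 on the minus strand. It had 1514 and 1635 reads in BrQ, against 496 and 529 in Vehicle. Its levels were 190.7 and 210.3 CPM in BrQ, against 71.9 and 80.9 CPM in Vehicle. Both BrQ libraries were far above both Vehicle libraries. The log2 fold change was 1.39 ± 0.15 (SE, 95% interval 1.05 to 1.73; edgeR adjusted p = 0.000183), the largest of the 10, and it passed under all 16 alternatives. Its interval overlaps that of Sdcbp, so the order of the top pair is not settled.

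**Figure D2:**
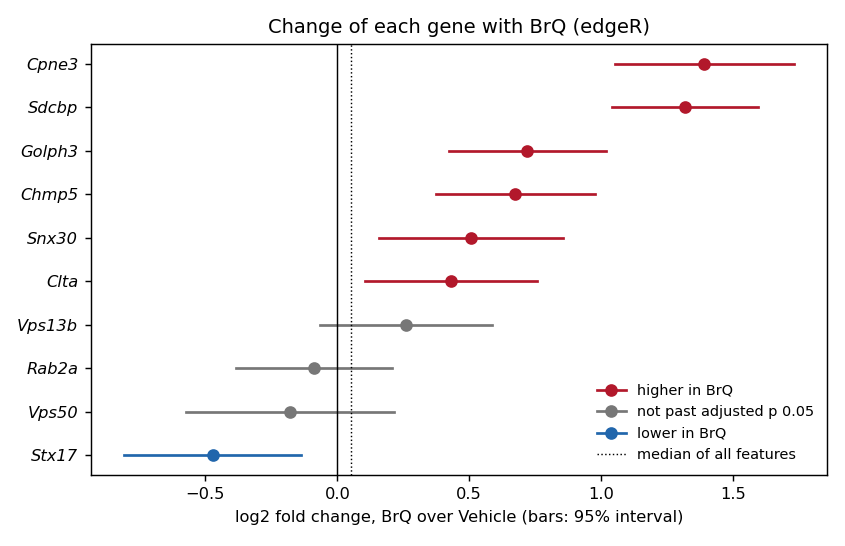
Log2 fold change of each gene, BrQ over Vehicle, with its 95% interval from the edgeR fit of all 4 libraries; red points passed as higher, the blue point as lower and grey points did not pass. Sdcbp (1.32) and Cpne3 (1.39) lie apart from the rest, and the intervals of Vps13b, Rab2a and Vps50 cross 0.

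Of all features tested, 13.3% had a larger log2 fold change than Cpne3 and 14.7% a larger one than Sdcbp. Changes of this size were thus common in these tables, and the pair does not stand at their extreme. For Golph3 and Chmp5 the shares were 28.1% and 29.4%. In CPM, the libraries of BrQ and Vehicle did not overlap for 8 of the 10 members, but neither did they for 76.1% of all features, so this count says little about the members.

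Ratios between members inside a library do not depend on how libraries are scaled. The log2 ratio of Sdcbp to Rab2a reads was 1.73 and 1.76 in BrQ, against 0.39 and 0.29 in Vehicle. The BrQ libraries were far above the Vehicle libraries in this ratio. The log2 ratio of Sdcbp to Cpne3 was 2.51 and 2.36 in BrQ, against 2.57 and 2.45 in Vehicle, and these overlapped. The log2 ratio of Sdcbp to Stx17 was 3.85 and 3.83 in BrQ, against 2.02 and 2.07 in Vehicle, again without overlap. Sdcbp and Cpne3 were each higher in BrQ relative to the same 8 other members without overlap, and Stx17 was lower relative to all 9. The ratio of Chmp5 to Golph3 was -0.39 and -0.28 in BrQ, against -0.27 and -0.31 in Vehicle on the log2 scale, so the groups overlapped for this pair. In all, 37 of 45 ratios separated the groups, a share close to the 83.8% of pairs without overlap among features with at least as many reads.

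Levels of different genes were compared per kb of merged exon, and again per kb of the longest annotated transcript, an alternative added after seeing the data. Both lengths came from GENCODE M21, and the annotation used for counting was not given. Each order of genes below therefore holds only if the counted intervals match these lengths, which was not shown. Clta had the highest level of the 10 in every library by both lengths, at 502.4 and 504.9 CPM per kb of exon in BrQ and 420.1 and 327.2 in Vehicle. Chmp5 and Rab2a have the same length either way. Chmp5 stood above Rab2a in BrQ, at 164.9 against 151.1 CPM per kb on average, and below it in Vehicle, at 103.3 against 160.8. But 29.8% of the Rab2a transcript matches Gm5865 and could share reads, so the close order of this pair in BrQ is not settled. Cpne3 stood above Stx17 in BrQ, at 28.1 against 12.8 CPM per kb of exon, and below it in Vehicle, at 10.7 against 17.7, and this order was the same per kb of transcript. The place of Sdcbp depends on the length used, because its merged exons (6904 bases) are 2.52 times its longest transcript (2745 bases). Per kb of exon Sdcbp averaged 156.7 CPM in BrQ, between Chmp5 and Rab2a, and 62.9 CPM in Vehicle, below both. Per kb of transcript it averaged 394.2 CPM in BrQ, well above both, and 158.1 CPM in Vehicle, beside Rab2a. The order of Vps13b and Vps50 depends on it too: they averaged 8.85 and 8.25 CPM per kb of exon in BrQ, but 13.7 and 16.7 CPM per kb of transcript. Which transcripts the node makes was not measured, so the full order of the 10 is not settled. The change of each gene between the groups does not depend on its length.

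**Figure D3:**
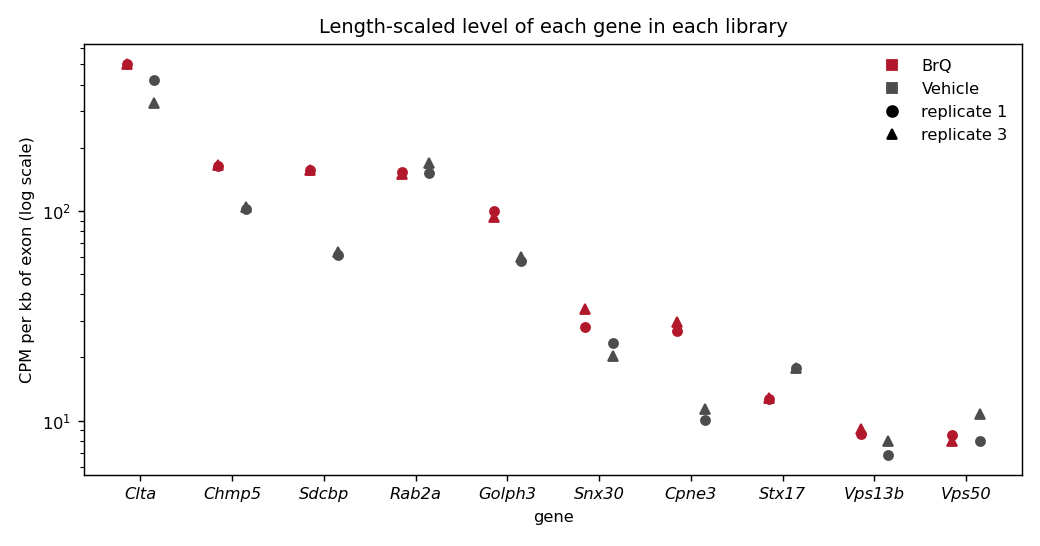
CPM per kb of merged exon (log axis) of each gene in each library, ordered by the BrQ mean, an order that depends in part on the length used; red is BrQ, grey Vehicle, circles replicate 1 and triangles replicate 3. Clta is at the top in all 4 libraries, and Sdcbp and Cpne3 show the widest gaps between the groups.

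The calls of Golph3, Chmp5, Sdcbp and Cpne3 stood under all 16 alternatives, while those of Clta, Snx30 and Stx17 each failed under at least 3. With library size alone the median of all features moved up by 0.37 on the log2 scale, and by 0.21 with the total of all read rows as library size. Members called were then 7 higher and 0 lower in both cases, where 35.2% and 30.2% of all features were called higher: Vps13b joined them and Stx17 no longer passed. Over all features, 77.1% and 66.2% of calls were then higher, against 51.5% with TMM. Leaving out the mitochondrial features from the scaling gave 6 higher and 1 lower, as before, beside 2406 higher and 2305 lower of 10223 features.

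**Figure D4:**
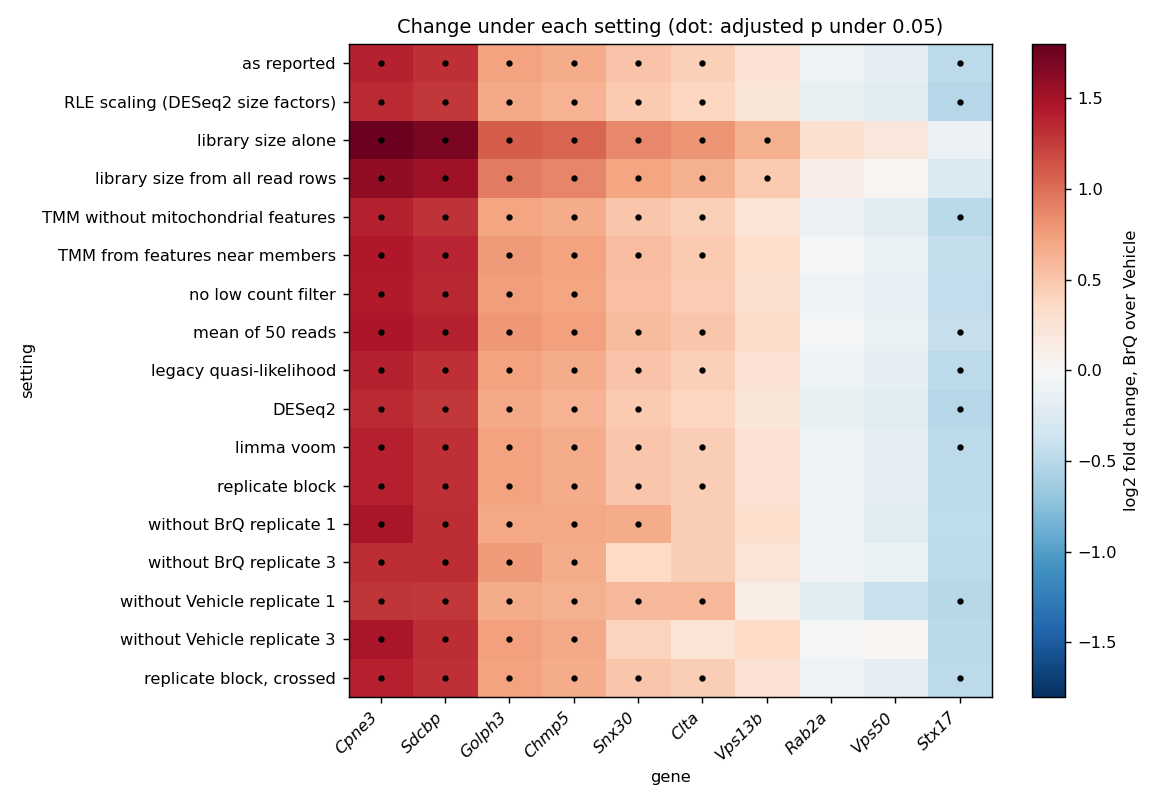
Log2 fold change (colour) of each gene, BrQ over Vehicle, in the reported fit (top) and under 16 other settings; a dot marks an adjusted p under 0.05. Cpne3, Sdcbp, Golph3 and Chmp5 carry a dot in every line, and Rab2a and Vps50 in none.

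Another 16 genes of traffic and endomembranes, picked by symbol and believed when chosen to lie on the same chromosome regions, were counted in the same fit. Of the 15 with enough reads to be tested, 1 was higher, 5 were lower and 9 did not pass, with a median log2 fold change of -0.44. Over all features, 45.7% were called, 23.6% as higher and 22.2% as lower. Plekhf2, an endosomal phosphoinositide-binding protein, was higher by 0.90 (edgeR adjusted p = 0.00152), and Rusc2 was lower, at -1.50 (edgeR adjusted p = 0.0151). Rusc2 had few reads, 17 and 16 in BrQ libraries against 40 and 40 in Vehicle libraries. The smallest changes were those of Retreg1, an endoplasmic reticulum-phagy receptor, at 0.02, and among negative values Bet1, a SNARE between endoplasmic reticulum and Golgi, at -0.30, and neither passed. Of the 16 genes, 12 lie within 5 Mb of a member, and 11 of these were tested, with 1 higher and 4 lower. The other 4, Retreg1 among them, lie farther away. That these names hold their own reads was not shown, and they are not read further.

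Lymph node markers on the same regions were counted as well. Of 8 markers listed for B cells (Pax5, Cd72), T cells (Il7r, Sit1, Tox), stroma (Ccl19, Ccl21a) and fibroblasts (Col1a2), 6 were tested, 1 was higher and 4 were lower, beside 45.7% of all features called and 66.6% of the well-filled ones. Cd72, Il7r, Sit1 and Col1a2 were lower, with log2 fold changes of -1.01, -0.61, -0.78 and -0.78 (edgeR adjusted p from 0.000285 to 0.0352). Tox was higher, at 0.72 (edgeR adjusted p = 0.00682), and Pax5 did not pass, at -0.22 (edgeR adjusted p = 0.155). The T cell markers thus gave no single direction. Both B cell markers had negative values, of which only that of Cd72 passed. The summed level of the 8 was 2763 and 2884 CPM in BrQ, against 4265 and 4473 CPM in Vehicle, and Cd72 made up 1038 and 1023 CPM of it in BrQ, against 2011 and 2129 CPM in Vehicle. Ccl21a was at 0 in all 4 libraries, and Ccl19 had 27 and 8 reads in BrQ libraries, against 5 and 0 in Vehicle libraries. These stromal chemokines thus had no or few reads under their names. Near-identical copies were searched for the members only, so this is not read as missing expression. The part of cell makeup and of the mitochondrial share in the results of the members was not tested.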

How the data were processed

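The authors deposited raw read counts per gene ID, 1 table for each of 4 libraries, with reads trimmed by Trim Galore 0.6.2, and HISAT2 2.1.0 plus HTSeq 0.11.2 named with mm10, per the submitters' processing notes. Not given in the sources used here are the annotation release and the strand setting. The 5 closing rows that name no gene entered no library size and no test; their share of all rows was 87.0% to 89.0%. Sample titles gave group and replicate number. Positions and exon lengths came from GENCODE M21 (GRCm38).

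Counts were tested with edgeR 4.0.16 in R 4.3.3 (filterByExpr, TMM, quasi-likelihood, group as the only term) over all features, adjusted by Benjamini-Hochberg with a threshold of 0.05. SEs were taken from the log2 fold change and its F statistic. Alternatives were other scalings and filters, the legacy fit, DESeq2 1.42.0, limma voom (limma 3.58.1), a replicate block and each library left out. Near-identical transcripts were searched with blastn 2.17.0 (95% identity, at least 100 bases). Figures were drawn with matplotlib 3.10.9. The 2 BrQ libraries differed by a chi-square of 12.4 per degree of freedom and the 2 Vehicle libraries by 26.6, so none was a copy. Every member is named, whatever its value; for the other traffic genes the rule named the largest and the smallest change in each direction. Members and lists were chosen with earlier results of these data known. Counts were simulated for BrQ vs Vehicle with a dispersion of 0.02 and 9910 features, of which 93 changed 2-fold and 97 changed 4-fold. There edgeR recovered 58 of the 93 changes of 2-fold and 94 of the 97 of 4-fold, with 8 false calls among 160. So few changes are unlike the real data, where 45.7% of all features passed. These rates describe the simulated setting only and were not shown to hold for the 4 libraries.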

Additional observations from a re-analysis of the deposited data

How the results depend on the processing

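With all 4 libraries kept, the number of members called higher stayed between 4 and 7. The main value was 6, beside 2409 of 10223 features called higher. It was 7 with library size alone (3603 of 10223 features) and with the total of all read rows (3092 of 10223). It was 5 with DESeq2 (1856 of 10223) and 4 with no low count filter (1307 of 21036). Leaving out 1 library left the median log2 fold change of the members between 0.38 (without Vehicle replicate 3) and 0.59 (without Vehicle replicate 1). The calls of Clta, Snx30 and Stx17 were not stable to this. In such a fit the lone mouse of a group is assumed to vary like the others. The lower call, of Stx17, was lost with library size alone, with the total of all read rows and with TMM from features near members. It was also lost with no low count filter and with the replicate block, which gave 6 higher and 0 lower. Features called lower were then 1072, 1578 and 2071 of 10223, 1174 of 21036 and 1968 of 10223, in that order. The replicate block called 2222 of 10223 features higher. The cause was not tested. The log2 fold change of Rab2a turned to 0.29 with library size alone and 0.12 with the total of all read rows as library size, and that of Vps50 to 0.21 and 0.037. Leaving out 1 library moved Vps50 between -0.40 (without Vehicle replicate 1) and 0.035 (without Vehicle replicate 3). Neither passed under any setting. Deviations of libraries with the same number from their group means had a correlation of -0.14. The crossed pairing, added after seeing the data, gave 6 higher and 1 lower, beside 2718 higher and 2566 lower of 10223 features. The labels do not say that a number marks a shared batch or day. With 2 mice in each group an exact permutation test cannot go below p = 0.33, so single values were not tested that way.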
